A study of Mus musculus with 163 samples.

Results

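The carbonic anhydrase genes Car2, Car3, Car4, Car5b, Car7, Car8, Car12, Car13 and Car14 were followed through single cochlear hair cells with and without the RNA-binding protein Rbm24. They are 9 of the 55291 genes of the count table, and they were listed because Car7 was known from these data to be very low in mutant outer hair cells. The question was whether that low level belonged to Car7 alone or was offset by another member. The Car7 values in the genotype comparisons are therefore a description. All 9 symbols were found in the table.

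The 163 cells came from mouse cochleae at postnatal day 7 (P7). The 56 Exp OHCs (outer hair cells) and 26 Exp IHCs (inner hair cells) came from Atoh1 P2A-Cre/P2A-Tdtomato; Rbm24 flox/flox mice, and the 43 Ctrl OHCs and 38 Ctrl IHCs from Atoh1 P2A-Tdtomato/+ mice. In the mutants Cre was made from the Atoh1 locus, a hair cell gene, so Cre and the second modified Atoh1 allele differ between the groups together with Rbm24. All cells were red fluorescent, were picked by hand after enzymatic dissociation, and were read by Smart-seq, which copies full-length RNA of one cell.

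No label names the animal of a cell, so each group is 1 sample, cells are not replicates, and no test was made. The counts of all cells in a group were added up and scaled to 1000000 counts of that group (CPM), and a log2 ratio of these levels sets 1 group against another. Bracketed intervals of ratios are 95% intervals of counting error only, since the reads carry no molecular identifiers. Those of shares of cells are exact binomial 95% intervals that take each cell as an independent draw. Neither kind says anything of the spread between animals, and whether intervals of shares overlap is no test between groups.

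Carbonic anhydrases are zinc enzymes that interconvert carbon dioxide and water with bicarbonate and protons. Car2, Car3, Car7 and Car13 are cytosolic. Car4, Car12 and Car14 sit in the plasma membrane with their active site outside, and Car5b is mitochondrial. Car8 has lost the catalytic zinc site and binds the inositol trisphosphate receptor Itpr1. In the cochlea the family is known mainly from supporting cells and fibrocytes, where Car2 takes part in pH and ion balance, and Car7 is best known from neurons, where its bicarbonate supply shapes GABA responses.

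Rbm24 acts on splicing and on the stability of its target messenger RNAs, and binding to GU-rich stretches such as GUGUG has been described for it. The letters GTGTG were therefore looked for in the annotated 3′ UTRs of the 9 genes, on the transcript strand only, in 1 coding transcript per gene of the GENCODE annotation of GRCm38. The 3′ UTR of Car7 (664 bases) held no GTGTG, and 61.3% of 11454 mouse 3′ UTRs hold it within their first 664 bases. Those of Car3 and Car14 held none either. Car2 held 1 match, Car4 1, Car13 1, Car12 2, Car5b 5 and Car8 6, counting overlapping ones. The sites of Car2 and Car12 and the longest run of Car8, members that the comparisons below turn on, are shown with the match in capitals, at chr3:14900114-14900138 (plus strand), chr9:66765804-66765830 (plus strand) and chr4:8146012-8146040 (minus strand) of GRCm38.
Car2: aagggcacaaGTGTGaccgcctctc
Car12: ggtggcagctGTGTGTGcaggatacgt
Car8: agaaacacaGTGTGTGTGTGcacacacca
Windows as long as the 3′ UTRs of Car12 (2488 bases) and Car8 (2890 bases) hold the letters in 96.2% and 97.4% of 3′ UTRs, and a window of the 680 bases of Car2 in 62.4%. A match is a run of letters and not a shown binding site, and the absence of a match in these windows says nothing of binding in introns or elsewhere.

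Cells held 5467115 to 18072166 counts, with group medians of 1.28e+07 in Exp OHCs, 9.09e+06 in Ctrl OHCs, 1.42e+07 in Exp IHCs and 8.67e+06 in Ctrl IHCs. Rbm24 itself was at 0.212 CPM in Exp OHCs against 315 CPM in Ctrl OHCs, and at 1.51 CPM in Exp IHCs against 431 CPM in Ctrl IHCs. By the summed markers Slc26a5, Ocm and Ikzf2 against Slc17a8, Fgf8 and Tbx2, 13 of 56 Exp OHCs went against their label and no cell of the other 3 groups did. The rule sets no minimum level for either sum, and OHC markers are themselves low in these mutants. A cell that goes against its label is therefore not shown to be of the other type. Cells that held Y-linked transcripts but no Xist numbered 16 of 56 Exp OHCs, 32 of 43 Ctrl OHCs, 7 of 26 Exp IHCs and 26 of 38 Ctrl IHCs, so the mix of sexes moves with genotype. The genotype values are also given within each sex where they differ. A second split of the cells, by the pseudogene Gm15772, was known from earlier results, and in both mutant groups the cells low in it gave the same values as the cells with Y-linked transcripts.

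Car7 (chr8:104534689-104550343, plus strand, GRCm38) was high in both control cell types and low in both mutant ones. It was at 12.7 CPM in Exp OHCs and 610 CPM in Ctrl OHCs. In IHCs it was at 88.7 CPM in Exp IHCs and 590 CPM in Ctrl IHCs. Single Exp OHCs ranged over 0, 0 and 244 CPM (lowest, median and highest cell), against 0.257, 617 and 2302 CPM in Ctrl OHCs. Single Exp IHCs ranged over 0, 37.4 and 452 CPM, against 131, 563 and 1213 CPM in Ctrl IHCs. The single-cell ranges overlapped in both cell types, since a few Exp OHCs and a larger share of Exp IHCs kept the RNA. A few Ctrl OHCs were near 0. At 10 CPM or more, Car7 was found in 7 of 56 Exp OHCs (12.5%, exact binomial interval 5.18 to 24.1) and 40 of 43 Ctrl OHCs (93.0%, 80.9 to 98.5). It reached that level in 14 of 26 Exp IHCs (53.8%, 33.4 to 73.4) and in all 38 Ctrl IHCs. After thinning each cell to 5000000 counts, 17.9% of Exp OHCs, 97.7% of Ctrl OHCs, 57.7% of Exp IHCs and 100% of Ctrl IHCs held a Car7 count, against 32.1%, 100%, 57.7% and 100% in the same order before thinning.

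**Figure D1:**
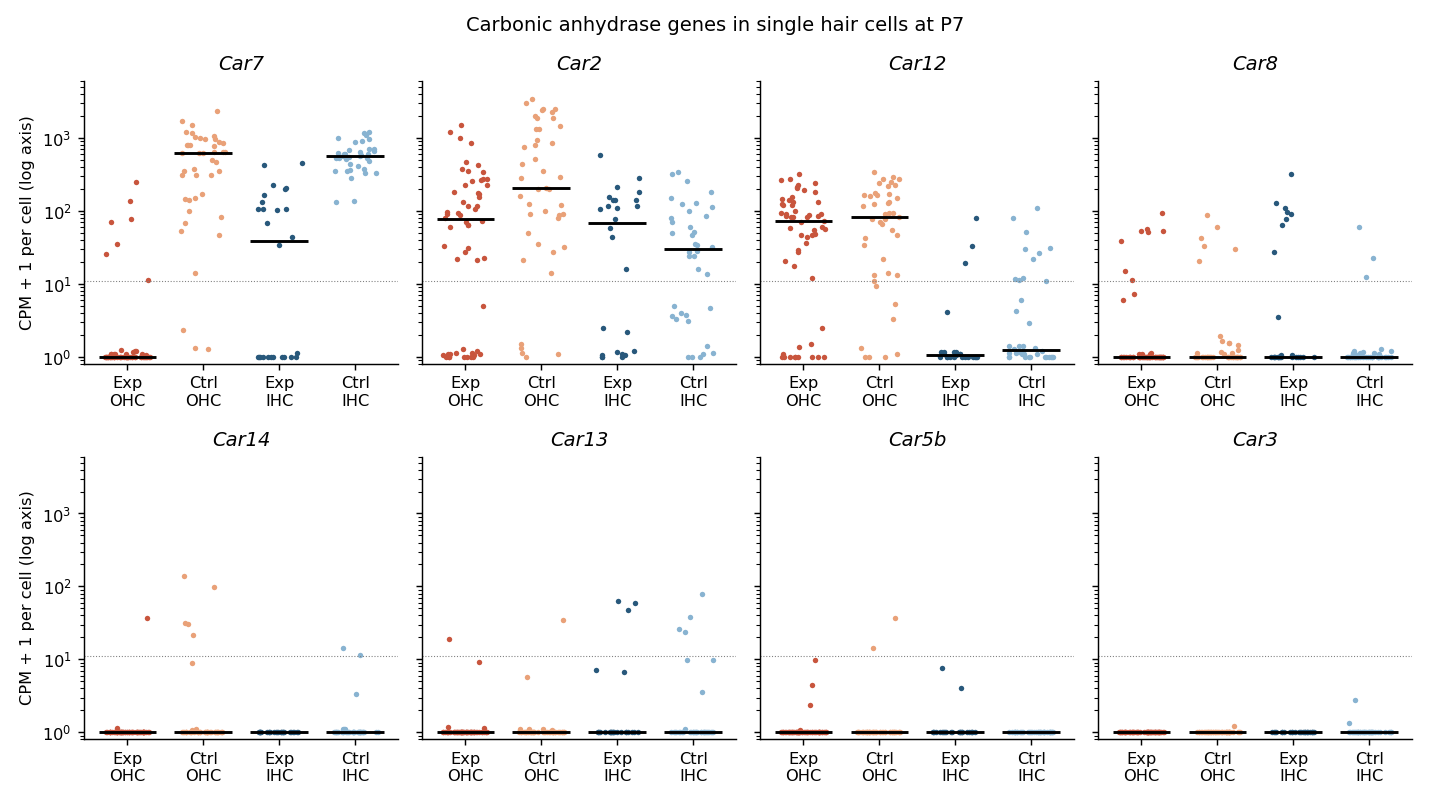
Single-cell levels of Car7, Car2, Car12, Car8, Car14, Car13, Car5b and Car3, as CPM + 1 on a log axis, with 1 point per cell, a black bar at the group's median and a dotted line at 10 CPM. Car7 has its median at 0 CPM in Exp OHCs and at 617 CPM in Ctrl OHCs, while Car12 has similar clouds in both OHC groups. Car8 reaches 10 CPM in 8 of 26 Exp IHCs, 8 of 56 Exp OHCs, 6 of 43 Ctrl OHCs and 3 of 38 Ctrl IHCs. Car4, with 1 count in all, is not drawn.

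The log2 ratio of Car7 was -5.59 (-5.62 to -5.56) in OHCs and -2.73 (-2.75 to -2.72) in IHCs. In OHCs 1 cell held 42.8% of the Car7 counts of the mutant group, and leaving out the top cell on each side gave -6.30. It was -6.03 among OHCs with Y-linked transcripts and -5.29 among those with Xist, and -3.28 and -2.61 among the same sets of IHCs. Without the 13 Exp OHCs whose markers go against their label it was -5.60. The low level thus held in each of these sets of cells. The OHC ratio minus the IHC ratio was -2.85 on the log2 scale, a difference that was not tested.

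The 7 Exp OHCs that kept Car7 at 10 CPM or more held 244, 133, 74.9, 68.7, 34.4, 24.7 and 10.3 CPM. Their Rbm24 was at 0 to 0.312 CPM, against 78.8 CPM in the lowest Ctrl OHC. The cell with 244 CPM of Car7 also held 1209 CPM of Car2, 200 CPM of Ocm (oncomodulin, a calcium buffer of OHCs) and 273 CPM of Ikzf2 (an OHC transcription factor). The cell with 133 CPM of Car7, which is among the 13 Exp OHCs that go against their label, held 0.0619 CPM of Car2, 0.0619 CPM of Ocm and no Ikzf2. The cells with the most Car7 thus differed from each other in these genes. The 3 Ctrl OHCs with under 10 CPM of Car7 held 1.31, 0.312 and 0.257 CPM, with 193, 7.64 and 199 CPM of Ocm. Ocm averaged 4951 CPM in Ctrl OHCs, so all 3 were low in it.

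Car2 (chr3:14886273-14900770, plus strand), a fast cytosolic enzyme of many tissues, was the other abundant member. It was at 190 CPM in Exp OHCs and 774 CPM in Ctrl OHCs. It was at 98.2 CPM in Exp IHCs and 61.8 CPM in Ctrl IHCs. Single cells ran over 0, 75.3 and 1508 CPM in Exp OHCs and over 0, 207 and 3438 CPM in Ctrl OHCs. In IHCs they ran over 0, 67.0 and 572 CPM in Exp IHCs and over 0, 29.1 and 339 CPM in Ctrl IHCs. All 4 groups overlapped widely, and each held cells with no count. Car2 was at 10 CPM or more in 39 of 56 Exp OHCs (69.6%, 55.9 to 81.2), 38 of 43 Ctrl OHCs (88.4%, 74.9 to 96.1), 16 of 26 Exp IHCs (61.5%, 40.6 to 79.8) and 25 of 38 Ctrl IHCs (65.8%, 48.6 to 80.4).

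The log2 ratio of Car2 was -2.02 (-2.03 to -2.02) in OHCs and 0.67 (0.64 to 0.69) in IHCs. In OHCs the mutant group sum was lower in every set of cells examined, with -2.49 for cells holding Y-linked transcripts and -1.29 for those holding Xist. In IHCs it was higher, with 1.32 and 0.28 in the same sets. Without the 13 Exp OHCs that go against their label the log2 ratio in OHCs was -1.78. Single-cell medians of OHCs were not lower in mutants in every set. Among cells with Y-linked transcripts they were 102 CPM in Exp OHCs and 284 CPM in Ctrl OHCs, and 79.7 and 89.1 CPM with Xist. Under 30 CPM of Gm15772 they were 102 CPM in Exp OHCs and 434 CPM in Ctrl OHCs, and 69.8 and 68.0 CPM at 30 CPM or more. The difference between the cell types, -2.69 on the log2 scale, was not tested.

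Car2 is also high in supporting cells and in red blood cells. Of 6 erythroid markers none reached 1 CPM in any group, and Car1, the red cell isoform, had no count. Of 8 supporting cell markers, 4 were at 1 CPM or more in Exp OHCs, 5 in Ctrl OHCs, 2 in Exp IHCs and 7 in Ctrl IHCs. Their summed level had a median of 0.457 CPM (0 to 327) in Exp OHCs, 9.57 CPM (0 to 349) in Ctrl OHCs, 12.8 CPM (0 to 156) in Exp IHCs and 0.711 CPM (0 to 1163) in Ctrl IHCs. Gjb6, Fabp7 and Otog were at 0 in both mutant groups. As group sums, the scale of the Car2 values, the 8 markers were at 33.8 CPM in Exp OHCs and 51.3 CPM in Ctrl OHCs, and at 23.7 CPM in Exp IHCs and 108 CPM in Ctrl IHCs. In OHCs the median and the sum were both lower in mutants, as Car2 was. In IHCs the median was higher and the sum lower in mutants, while Car2 was higher. Of 6 mesenchyme and fibrocyte markers, 2 were at 1 CPM or more in Exp OHCs and 3 in each other group, with Col3a1 at 0 in Exp OHCs and both IHC groups. Their summed level had a median of 35.4 CPM (0 to 512) in Exp OHCs and 191 CPM (0.134 to 974) in Ctrl OHCs, and of 24.7 CPM (0 to 164) in Exp IHCs and 166 CPM (19.3 to 1788) in Ctrl IHCs. Most of it was Otos, otospiralin, at 53.3 CPM in Exp OHCs and 246 CPM in Ctrl OHCs, and at 28.8 CPM in Exp IHCs and 301 CPM in Ctrl IHCs. Their summed level was lower in the mutants of both cell types, as Car7 was, and the part of either list in the Car2 and Car7 values was not tested.

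Car13, a cytosolic isoform whose gene lies in 1 stretch of chromosome 3 with Car1, Car3 and Car2 (chr3:14641727-14900770 of GRCm38 from the start of Car13 to the end of Car2), was a gene of few cells. It was at 0.441 CPM in Exp OHCs and 0.751 CPM in Ctrl OHCs, below the 1 CPM used for comparisons. It was at 6.76 CPM in Exp IHCs and 4.62 CPM in Ctrl IHCs, with a log2 ratio of 0.55 (0.46 to 0.64). Only 3 of 26 Exp IHCs, with 61.6, 59.2 and 46.2 CPM, and 4 of 38 Ctrl IHCs, with 77.8, 36.6, 25.3 and 22.8 CPM, reached 10 CPM. Within the sexes the ratio was -2.03 and -0.04, so Car13 showed no stable direction in IHCs. Car3, best known from muscle and fat, had no count in Exp OHCs against 0.00501 CPM in Ctrl OHCs, and none in Exp IHCs against 0.0545 CPM in Ctrl IHCs. For 0 of 56 Exp OHCs at 10 CPM the exact binomial interval of the share ends at 6.38%.

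Car12 (chr9:66713686-66766845, plus strand), a membrane enzyme, was mainly an OHC gene, with similar levels in both genotypes. It was at 86.7 CPM in Exp OHCs and 105 CPM in Ctrl OHCs, and at 5.73 CPM in Exp IHCs and 9.28 CPM in Ctrl IHCs. Single cells ran over 0, 70.8 and 318 CPM in Exp OHCs and over 0, 79.8 and 340 CPM in Ctrl OHCs. Medians were 0.0691 CPM in Exp IHCs and 0.242 CPM in Ctrl IHCs. It was at 10 CPM or more in 43 of 56 Exp OHCs (76.8%), 34 of 43 Ctrl OHCs (79.1%), 3 of 26 Exp IHCs (11.5%) and 10 of 38 Ctrl IHCs (26.3%). The OHC groups overlapped over almost their whole range. The log2 ratio was -0.28 (-0.30 to -0.26) in OHCs, with 0.09 and -0.08 within the sexes, and -0.70 (-0.78 to -0.62) in IHCs. In IHCs it was -6.97 among the cells with Y-linked transcripts, where none of the 7 Exp IHCs reached 10 CPM, and -0.82 among those with Xist, and -1.76 with the top cell of either group left out.

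Car14, another membrane enzyme, was at 0.823 CPM in Exp OHCs and 7.10 CPM in Ctrl OHCs. The Ctrl OHC level rested on 5 cells of 43 with 140, 98.0, 30.2, 29.8 and 20.9 CPM, and the Exp OHC level on 1 cell with 36.2 CPM. The ratio on the log2 scale was -3.11 (-3.24 to -2.98), or -10.47 with the top cell of either group left out. It was -1.32 among OHCs with Y-linked transcripts, which include the Exp OHC with 36.2 CPM, and -11.20 among those with Xist. In IHCs Car14 had no count in Exp IHCs and 0.640 CPM in Ctrl IHCs, at least 77.8-fold lower in Exp IHCs when the group's 0 is set to 3 counts. An exon of Car14 overlaps Aph1a on the other strand, and the strand setting of the counting is not given in the sources used here. Reads of the overlap therefore cannot be told apart. Car4 had 1 count, in an Exp OHC, and none in the other groups.

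Car5b, the mitochondrial isoform on chromosome X, was near the limit of detection. Exp OHCs held 0.222 CPM and Ctrl OHCs 1.06 CPM, and Exp IHCs held 0.310 CPM and Ctrl IHCs no count. Only 2 Ctrl OHCs reached 10 CPM, with 36.5 and 13.3 CPM. The log2 ratio in OHCs, -2.25 (-2.52 to -1.99), turned over among cells with Y-linked transcripts, where Ctrl OHCs had no count.

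Car8 (chr4:8143362-8239041, minus strand), the acatalytic member, was the only one that was higher in mutants by more than 2-fold at 1 CPM or more, and in IHCs only. It was at 34.6 CPM in Exp IHCs and 2.22 CPM in Ctrl IHCs, with a log2 ratio of 3.96 (3.85 to 4.07). In OHCs it was at 6.91 CPM in Exp OHCs and 6.02 CPM in Ctrl OHCs, with a log2 ratio of 0.20 (0.13 to 0.27). The median cell held none in all 4 groups. It was at 10 CPM or more in 8 of 26 Exp IHCs (30.8%, 14.3 to 51.8), 3 of 38 Ctrl IHCs (7.89%, 1.66 to 21.4), 8 of 56 Exp OHCs (14.3%) and 6 of 43 Ctrl OHCs (14.0%). The intervals of the IHC shares overlapped.

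The 8 Exp IHCs held 318, 128, 109, 96.5, 89.1, 76.9, 62.2 and 25.9 CPM of Car8, and the first of them held 39.8% of the group's Car8 counts. The 3 Ctrl IHCs held 59.8, 21.6 and 11.2 CPM. With the top cell on each side left out, the IHC ratio was 4.59. It was 6.44 among IHCs with Y-linked transcripts, where 3 of 7 Exp IHCs and 1 of 26 Ctrl IHCs were at 10 CPM or more, and 1.75 among those with Xist, with 5 of 19 and 2 of 12. In OHCs the direction differed between the sexes, at -0.61 and 1.42, and it was -0.12 without the 13 Exp OHCs that go against their label.

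Of the 8 Exp IHCs with Car8, 7 held no Car7 count and 1 held 42.1 CPM. Over the 26 Exp IHCs the Pearson correlation of log2(CPM + 1) of Car7 and Car8 was -0.53 (Spearman -0.54), and it was 0.12 over 38 Ctrl IHCs and -0.17 over 56 Exp OHCs. These are descriptions over cells that share a group and an unknown number of animals. The 8 cells held 74.4 to 349 CPM of Slc17a8, the vesicular glutamate transporter of IHCs, and 32.8 to 515 CPM of Tbx2. Car2 was under 2 CPM in 7 of them. Over all Exp IHCs a list of 5 IHC markers summed to 553 CPM, against 1217 CPM in Ctrl IHCs. Dnajc5b, 1 of the 5, was at 0.938 CPM in Exp IHCs and 143 CPM in Ctrl IHCs.

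**Figure D2:**
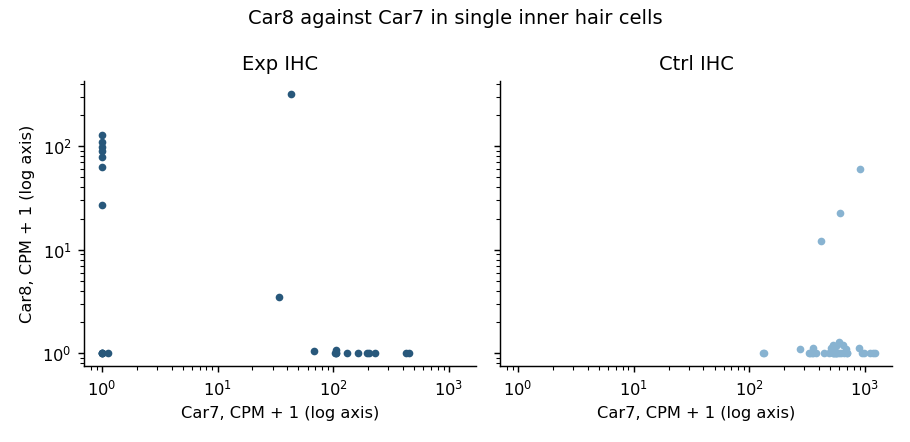
Car8 against Car7 in single inner hair cells, both as CPM + 1 on log axes, with Exp IHCs left and Ctrl IHCs right and 1 point per cell. Of the 8 Exp IHCs at 10 CPM of Car8 or more, 7 stand at 0 CPM of Car7 and 1 at 42.1 CPM, while the 3 such Ctrl IHCs also hold Car7.

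Itpr1, the receptor that Car8 binds, was at 5.33 CPM in Exp OHCs and 22.0 CPM in Ctrl OHCs, with a log2 ratio of -2.05 (-2.10 to -1.99). It was at 0.00822 CPM (3 counts) in Exp IHCs and 7.42 CPM in Ctrl IHCs, with a log2 ratio of -9.82 (-12.10 to -8.27). At 10 CPM or more it was found in 0 of 26 Exp IHCs (interval to 13.2%) and 5 of 38 Ctrl IHCs (13.2%, 4.41 to 28.1). The intervals of these shares overlapped, and the median Ctrl IHC held none. So the receptor was lower in Exp IHCs, the group with the highest Car8, and 1 cell held 89.5% of its counts in Exp OHCs.

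**Figure D3:**
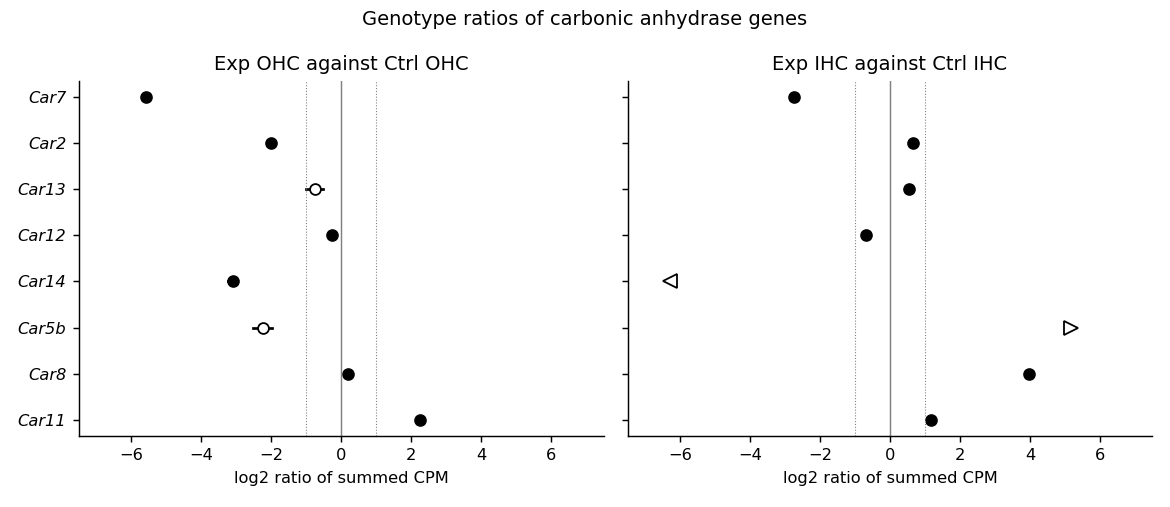
Log2 ratio of summed CPM for 7 members and Car11, Exp OHC against Ctrl OHC left and Exp IHC against Ctrl IHC right, with bars for the 95% counting interval, mostly narrower than the symbol. Filled points average at least 1 CPM over both groups, hollow ones less, triangles are bounds against a group at 0, and dotted lines mark 2-fold. Car7 stands left of the line in both panels, Car2 in OHCs only, and Car8 right of it in IHCs only.

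In OHCs no member was higher beyond 2-fold, while 3 of the 5 members that averaged at least 1 CPM over both groups were lower (Car7, Car2 and Car14). Over all 14588 genes at that level 13.1% were lower and 18.4% higher beyond 2-fold. The members' median log2 ratio was -2.02, against 0.06 for all genes. Among cells with Xist 5 of 6 members passed 2-fold, 4 lower and 1, Car8, higher, and among cells at 30 CPM of Gm15772 or more 6 of 7 did, 5 lower and 1 higher. In IHCs 1 of 5 members was lower (Car7) and 1 higher (Car8), beside 11.7% lower and 18.8% higher of 14557 genes, with a median of 0.55 against 0.11. Among IHCs with Y-linked transcripts 5 of 5 passed 2-fold, 3 lower (Car7, Car12 and Car13) and 2 higher (Car8 and Car2). The shares over all genes were taken over all cells and not within the sets split by sex or Gm15772. The counts in those sets therefore cannot be set against them. The choice of members rests on Car7 in OHCs, so nothing is read from these counts about the family.

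The summed level of the 9 genes, which contains Car7 and is given as a description, was lower in the mutants of both cell types. It was 298 CPM in Exp OHCs and 1504 CPM in Ctrl OHCs, with a log2 ratio of -2.34 (-2.34 to -2.33). It was 234 CPM in Exp IHCs and 669 CPM in Ctrl IHCs, with a log2 ratio of -1.51 (-1.52 to -1.50). Single cells ran over 0.0626, 186 and 1508 CPM in Exp OHCs and over 0.779, 916 and 4550 CPM in Ctrl OHCs. In IHCs they ran over 32.1, 182 and 676 CPM in Exp IHCs and over 179, 638 and 1341 CPM in Ctrl IHCs. The ranges overlapped in both cell types. Per kb of exon, which weighs transcripts rather than reads, the sums were 95.8 in Exp OHCs and 506 in Ctrl OHCs (log2 ratio -2.40), and 77.6 in Exp IHCs and 192 in Ctrl IHCs (log2 ratio -1.31).

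In OHCs the mutant minus control difference was -597 CPM for Car7 and -584 CPM for Car2, and the only gain among the abundant members was 0.891 CPM of Car8. Both cytosolic enzymes were thus lower together, and the sum without Car7 was 285 CPM in Exp OHCs and 894 CPM in Ctrl OHCs. In IHCs Car7 differed by -501 CPM, while Car2 differed by 36.3 CPM and Car8 by 32.4 CPM. The sum without Car7 was 146 CPM in Exp IHCs and 78.7 CPM in Ctrl IHCs, a difference of 66.9 CPM. Car2 and Car8 made up nearly all of this gain, with 2.14 CPM from Car13, while Car12 differed by -3.55 CPM and Car14 by -0.640 CPM. Car8 encodes a protein without enzyme activity.

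By place in the cell, the 4 cytosolic enzymes summed to 203 CPM in Exp OHCs and 1384 CPM in Ctrl OHCs (log2 ratio -2.77), and to 194 CPM in Exp IHCs and 657 CPM in Ctrl IHCs (log2 ratio -1.76). The 3 membrane enzymes summed to 87.5 CPM in Exp OHCs and 112 CPM in Ctrl OHCs (log2 ratio -0.36), and to 5.73 CPM in Exp IHCs and 9.92 CPM in Ctrl IHCs (log2 ratio -0.79). Car7 made up 4.26% of the family's counts in Exp OHCs and 40.5% in Ctrl OHCs, and 37.9% in Exp IHCs and 88.2% in Ctrl IHCs. Car12 made up 29.1% in Exp OHCs and 7.00% in Ctrl OHCs, a larger share at a similar level.

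**Figure D4:**
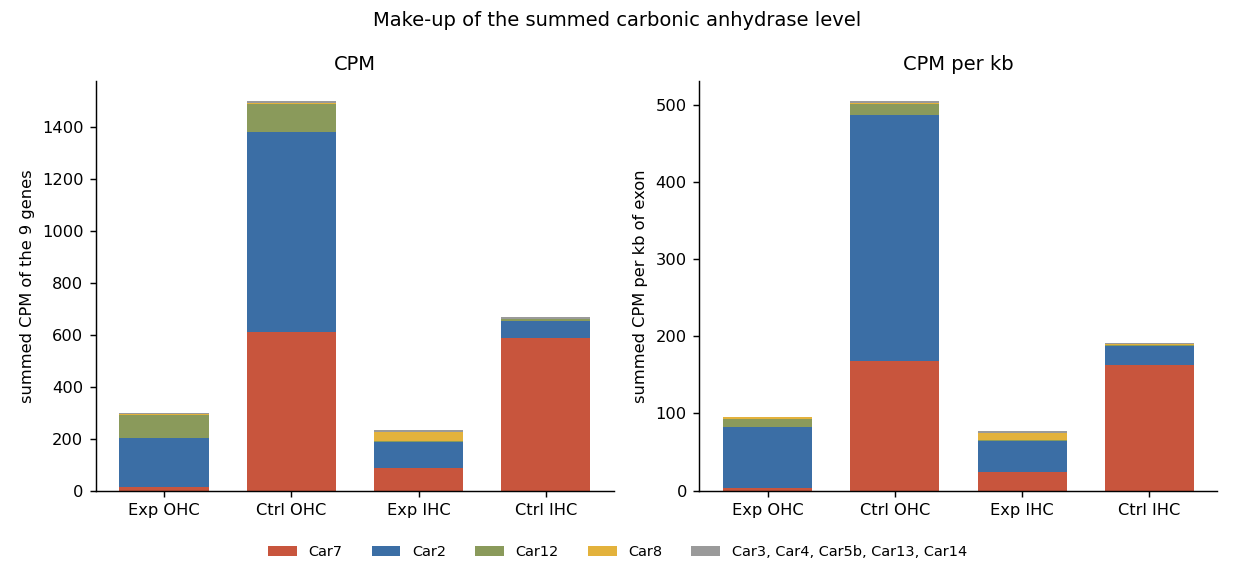
Summed level of the 9 genes in the 4 groups, split by member, in CPM (left) and in CPM per kb of exon (right), each bar starting at 0. The sum is 298 CPM in Exp OHCs and 1504 CPM in Ctrl OHCs, with both the Car7 and the Car2 parts smaller in Exp OHCs, and 234 CPM in Exp IHCs and 669 CPM in Ctrl IHCs, where the Car7 part is smaller and the Car2 and Car8 parts are larger in Exp IHCs.

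Per kb of exon the order of the genes differed between the groups. In Exp OHCs Car2 (78.5 CPM per kb) stood above Car12 (11.4), Car7 (3.49) and Car8 (1.79). In Ctrl OHCs Car2 (320) stood above Car7 (168), Car12 (13.9) and Car14 (2.79). In Exp IHCs the order was Car2 (40.5), Car7 (24.4), Car8 (8.98) and Car13 (2.94), and in Ctrl IHCs Car7 (162), Car2 (25.5), Car13 (2.01) and Car12 (1.22). So by group sums Car2 led in 3 of the groups and Car7 in Ctrl IHCs. By medians over single cells, not scaled to exon length, Car7 (617 CPM) stood above Car2 (207 CPM) in Ctrl OHCs. The single-cell ranges of neighbours in these orders overlapped.

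At 10 CPM or more, the median cell held 2 members in Exp OHCs, 3 in Ctrl OHCs, 2 in Exp IHCs and 2 in Ctrl IHCs. No member reached it in 5 of 56 Exp OHCs, 1 of 43 Ctrl OHCs and no IHC. Of the 49 Exp OHCs without Car7 at that level, 43 held another catalytically active member, and of the 12 such Exp IHCs 7 did, 6 with Car2 or Car12 and 1 with Car13. Car7 and Car2 stood together in 6 of 56 Exp OHCs, 37 of 43 Ctrl OHCs, 10 of 26 Exp IHCs and 25 of 38 Ctrl IHCs. The other 6 Exp OHCs and 5 Exp IHCs held no active member at that level.

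Car7 and Car2 varied together over Ctrl OHCs. The Pearson correlation of log2(CPM + 1) was 0.74 (Spearman 0.84) over 43 Ctrl OHCs, against 0.13 over 56 Exp OHCs. It was 0.19 over 26 Exp IHCs and -0.22 over 38 Ctrl IHCs. In Ctrl OHCs both also varied with Ocm (0.84 for Car7 and 0.73 for Car2) and with Slc26a5, the OHC motor protein prestin (0.76 and 0.68). Car12 did not, at -0.04 with Car7 and -0.11 with Ocm. Car7 had a correlation of 0.28 with the total counts of a Ctrl OHC. Of 7072 genes at 20 CPM or more in Ctrl OHCs, Car2 ranked 14 in likeness to Car7 and Car12 ranked 3654, and 5% to 95% of the genes lay between -0.39 and 0.38.

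**Figure D5:**
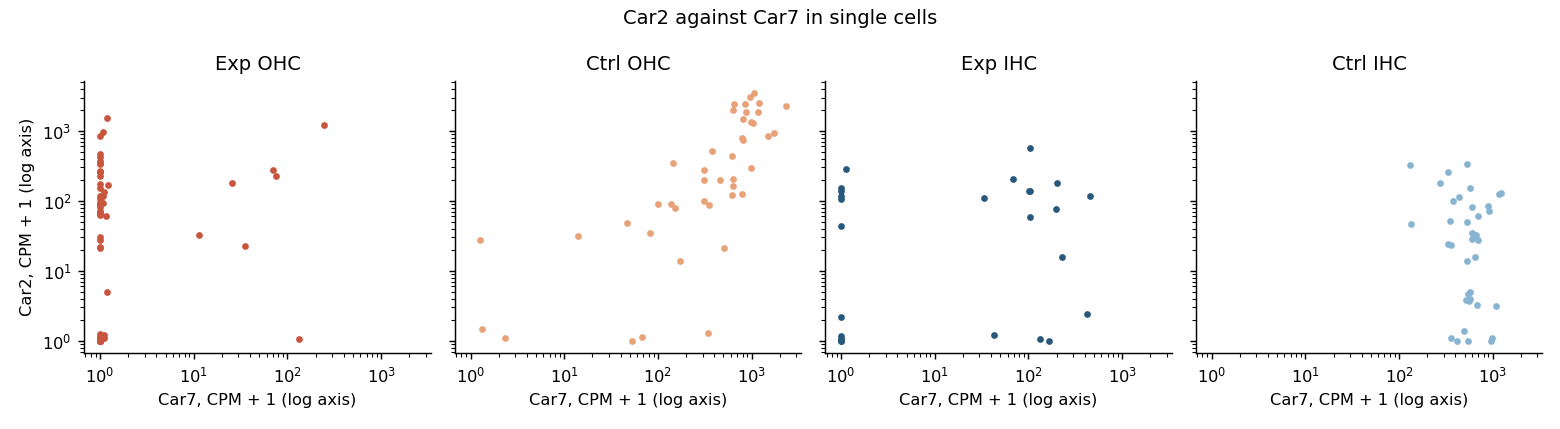
Car2 against Car7 in single cells, both as CPM + 1 on log axes, with Exp OHCs, Ctrl OHCs, Exp IHCs and Ctrl IHCs from left to right and 1 point per cell. The Ctrl OHCs form a rising band (r 0.74), most Exp OHCs lie at 0 CPM of Car7 over the whole range of Car2, and Ctrl IHCs vary in Car2 at a narrow range of Car7 from 131 to 1213 CPM.

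The 5 genes most like Car7 over Ctrl OHCs were AI593442 (0.86), Ocm (0.84), 1700001K23Rik (0.84), Ppp1cb (0.80), a catalytic subunit of protein phosphatase 1, and Ptp4a2 (0.77), a phosphatase. Ocm was at 18.6 CPM in Exp OHCs and 4951 CPM in Ctrl OHCs, and 1700001K23Rik at 20.9 and 293 CPM in the same groups. Over all 163 cells, which mix the 4 groups, the 5 were Pxdc1 (0.81), Rbm24 (0.80), Synj2 (0.76), a phosphoinositide phosphatase, Gm5737 (0.76) and 1300002E11Rik (0.72). In these cells 5% to 95% of genes lay between -0.30 and 0.32. Pxdc1 was at 4.80 CPM in Exp OHCs and 268 CPM in Ctrl OHCs, and at 40.6 CPM in Exp IHCs and 400 CPM in Ctrl IHCs. Like Car7 it was lowest in Exp OHCs, but it was highest in Ctrl IHCs and Car7 in Ctrl OHCs. Within Ctrl OHCs the correlation of Car7 with Rbm24 was -0.34.

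Between the control cell types Car7 was nearly level, and the other 5 members at 1 CPM or more differed beyond 2-fold. Car7 had 610 CPM in Ctrl OHCs against 590 CPM in Ctrl IHCs, with a log2 ratio of 0.05 (0.04 to 0.06), and the sign turned among cells with Xist (-0.015). Car2 was 12.5-fold higher in Ctrl OHCs (log2 ratio 3.65), Car12 11.3-fold (3.50), Car14 11.1-fold (3.47) and Car8 2.71-fold (1.44), and Car13 was 6.16-fold lower (-2.62). These were 4 higher and 1 lower of 6 members at 1 CPM or more, beside 15.3% higher and 13.4% lower of 14445 genes. Car14, Car8 and Car13 rested on few cells, and their median cell held none in either control group. They were at 10 CPM or more in 5, 6 and 1 of 43 Ctrl OHCs and in 2, 3 and 4 of 38 Ctrl IHCs. The Car8 value turned over among cells with Xist (-0.86). The summed level was 1504 CPM in Ctrl OHCs, against 669 CPM in Ctrl IHCs, with a log2 ratio of 1.17 (1.16 to 1.18). Ctrl OHCs and Ctrl IHCs also serve as the controls of the genotype ratios, so the comparisons share cells.

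Of the 7 other carbonic anhydrase genes, Car11 alone averaged 1 CPM or more over a pair of groups. Car11, like Car8 and Car10 an acatalytic relative, was at 13.1 CPM in Exp OHCs and 2.76 CPM in Ctrl OHCs, with a log2 ratio of 2.25 (2.16 to 2.34). It was at 6.36 CPM in Exp IHCs and 2.81 CPM in Ctrl IHCs, with a log2 ratio of 1.18 (1.07 to 1.29). At 10 CPM or more it was found in 11 of 56 Exp OHCs, 3 of 43 Ctrl OHCs, 3 of 26 Exp IHCs and 3 of 38 Ctrl IHCs, and 1 cell held 60.7% of its counts in Exp IHCs. Car10 had 1.78 CPM in Exp OHCs and none in Ctrl OHCs, with 1 cell of 82.1 CPM holding 82.3% of its counts. Car1, Car5a and Car6 had no count, and Car9 and Car15 stayed under 1 CPM.

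The transport side of acid and bicarbonate handling was taken from a list of 45 genes. In OHCs 25 of them were at 1 CPM or more, with 3 lower and 2 higher beyond 2-fold and a median log2 ratio of 0.07. In IHCs 26 were, with 3 lower and 2 higher and a median of -0.06. These shares lie near or below those of all genes. In OHCs the anion exchanger gene Slc4a3 (9.20 CPM in Exp OHCs and 18.7 CPM in Ctrl OHCs), the sodium-proton exchanger gene Slc9a8 (21.5 and 43.1 CPM) and Adcy10, the bicarbonate-activated adenylyl cyclase (2.05 and 5.12 CPM), were lower. The exchanger gene Slc9a7 (4.24 and 1.73 CPM) and the potassium-chloride cotransporter gene Slc12a5 (26.4 and 8.83 CPM) were higher. In IHCs the sodium-bicarbonate cotransporter gene Slc4a4 had no count in Exp IHCs and 2.62 CPM in Ctrl IHCs, and Slc26a6 (2.14 and 8.69 CPM) and Slc16a8 (0.376 and 1.78 CPM) were also lower. Slc9a8 (20.4 and 40.9 CPM) fell just short of 2-fold there, with a log2 ratio of -0.999 against -1.004 in OHCs, so its difference was alike in both cell types. Slc4a11 (3.36 CPM in Exp IHCs and 1.09 CPM in Ctrl IHCs) and Adcy10 (6.26 and 0.933 CPM) were higher. Of 6 proton pump subunits, the 5 at 1 CPM or more in OHCs and the 4 in IHCs were within 2-fold.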

How the data were processed

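Raw read counts per gene and cell were deposited by the authors. The tools named are featureCounts 2.0.1, HISAT2 2.2.1 and SAMtools, and the build mm10, per the submitters' processing notes. The annotation, strand setting and handling of shared reads are not given in the sources used here. Of 55291 gene identifiers, 55034 (99.5%) matched GENCODE M21 on GRCm38, another name of mm10, which gave symbols, loci, exon lengths and 3′ UTRs. No pair of cells had identical columns.

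Levels are a group's summed counts over its total. Ratios have an exact conditional binomial (Clopper-Pearson) 95% interval, levels an exact Poisson one and shares of cells at 10 CPM or more an exact binomial one. Sums of 0 were set to a floor of 3 counts over the group (0.00416 CPM in Exp OHCs, 0.00751 in Ctrl OHCs, 0.00822 in Exp IHCs and 0.00861 in Ctrl IHCs) for a bound, and pairs of sums that both lie at or under it have no ratio. A call is a 2-fold difference with an average of at least 1 CPM over both groups. The interval code was tested on simulated Poisson counts, which have the error that the intervals assume. That run checks the code only and says nothing of the spread between cells or animals.

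All 9 members are named; other family and pathway genes are named where called in a genotype comparison; the 5 genes with the highest Pearson r to Car7 over Ctrl OHCs and over all cells are named among genes at 20 CPM or more in Ctrl OHCs, and Itpr1 as the known partner of Car8. Members, lists and alternatives were chosen with earlier results of these data known. Python 3.11.15 with numpy 2.4.6, pandas 2.3.3 and scipy 1.17.1 was used, and edgeR 4.0.16 and DESeq2 1.42.0 in R 4.3.3 gave scaling factors only. The proteins are not analysed here.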

Additional observations from a re-analysis of the deposited data

Results flagged for a closer look

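4 results had opposite genotype directions in the 2 cell types. None of these differences was tested, since each group is 1 sample. The log2 ratio of Car2 was -2.02 in OHCs (190 CPM in Exp OHCs, 774 CPM in Ctrl OHCs) and 0.67 in IHCs (98.2 CPM in Exp IHCs, 61.8 CPM in Ctrl IHCs), a difference of -2.69. The summed level of the members other than Car7 had log2 ratios of -1.65 in OHCs and 0.89 in IHCs, a difference of -2.54, and Car2 is its largest part. Slc4a3 had log2 ratios of -1.03 in OHCs and 0.64 in IHCs, a difference of -1.67, and Adcy10 -1.32 and 2.75, a difference of -4.07. The control levels from which these ratios are taken also differ between the cell types, with 5.12 CPM of Adcy10 in Ctrl OHCs against 0.933 CPM in Ctrl IHCs.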

How the results depend on the processing

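Each group is 1 sample, so these values have no test and the cause of each move was not tested. The splits by Gm15772, the values per kb, those without Ctrl OHC cell 1 and those without Exp cells that go against their label were added after the data had been seen. Sets below are in the order TMM, DESeq2, mean over single cells, highest cells left out, cells with Y-linked transcripts, cells with Xist, under 30 CPM of Gm15772, and 30 CPM or more. The log2 ratio of Car7 in OHCs (-5.59) became -5.62, -5.65, -5.81, -6.30, -6.03, -5.29, -6.24 and -5.01, and in IHCs (-2.73) -2.83, -2.80, -2.71, -2.90, -3.28, -2.61, -3.33 and -2.51. That of the summed family in OHCs (-2.34) became -2.37, -2.40, -2.38, -2.43, -2.46, -1.97, -2.61 and -1.85, with -2.40 per kb and -2.12 without the 13 Exp OHCs, and in IHCs (-1.51) -1.61, -1.57, -1.53, -1.59, -1.18, -1.72, -1.23 and -1.60, with -1.31 per kb. For Ctrl OHCs against Ctrl IHCs, Car7 (0.05) became 0.022, 0.030, 0.0057, 0.033, 0.057, -0.015, 0.21 and -0.29, so its sign rests on the set of cells. There the sum (1.17) became 1.14, 1.15 and 1.13 under TMM, DESeq2 and the mean over cells, 1.26, 0.82, 1.36 and 0.76 in the 4 sets, and 1.40 per kb. Leaving out Ctrl OHC cell 1 gave -2.36 for the sum in OHCs, and 0.070 for Car7 and 1.19 for the sum between the control cell types.

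Members beyond 2-fold in OHCs (3) became 5 among cells with Xist and 6 at 30 CPM of Gm15772 or more. In IHCs (2) they became 5 among cells with Y-linked transcripts, 5 under 30 CPM of Gm15772 and 5 with no filter on low levels. Between the control cell types (5) they became 2 with a filter at 5 CPM. The share over all genes was not taken under these alternatives, so none stands beside these counts. Car5b in OHCs (-2.25) turned to bounds of 4.39 among cells with Y-linked transcripts and 4.09 under 30 CPM of Gm15772, and Car8 between control cell types (1.44) to -0.86 with Xist and -0.65 at 30 CPM of Gm15772 or more. No paired analysis was possible because the shared replicate numbers only name single cells, each group is 1 sample, and the results come from no test. Thinning to 5000000 counts a cell moved the share of Exp OHCs with a Car7 count to 17.9%, against 32.1% unthinned, and of Ctrl IHCs with a Car12 count to 57.9%, against 71.1%.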
